A study of Mus musculus with 2 samples.

Results

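The genes of 4 guidance systems (semaphorins, ephrins, Slits and netrins, with their receptors) were looked up in lists of gene names. The lists were deposited for regions of differential DNA methylation between Neurog3-null and heterozygous cells of the mouse pancreas. Members were chosen by gene symbol (Sema, Plxna to Plxnd, Nrp1 and Nrp2, Efna, Efnb, Epha, Ephb, Slit, Robo, Ntn, Unc5a to Unc5d and Dcc, each family name followed by its number), without regard to case. The rule took 71 genes, of which 70 code for protein, out of 21887 protein-coding genes annotated on the assembled chromosomes. The 71st, Plxna4os1, is a noncoding transcript that lies within Plxna4, and it was in neither list. The 70 coding genes divide evenly into 35 ligand genes and 35 receptor genes. The family was proposed with its place in these lists in view, so its counts are a description and carry no test.

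Whole-genome bisulfite sequencing, which reads an unmethylated cytosine as thymine and leaves a methylated one as cytosine, was done on 2 libraries from E14.5 pancreas. The heterozygous library came from Ngn3eGFP/+ cells and the null library from Ngn3eGFP/eGFP cells; in both, eGFP stands at the Ngn3 locus (current symbol Neurog3) and cells were sorted for it. The background of both was mixed, over 95% ICR with under 2.5% each of C57Bl/6 and 129svev. In the labels the former are islet progenitors and the latter endocrine progenitors, so an effect of genotype and a difference in developmental stage or in the mix of sorted cells cannot be told apart. Each genotype had 1 library with about 400000000 reads per the labels, hence no difference has a replicate check. Neither the sex nor the number of embryos is stated, and with no expression values the sorted cell type could not be checked against markers. The table analysed gives gene names only, in a list for regions less methylated in the null library (the lower list, 429 names) and a list for regions more methylated in it (the higher list, 3230 names). It holds no methylation level, position, coverage or number of regions, so the precision behind each name is unknown. A gene is called named below where it stands in a list. How regions were assigned to genes is not known, and being named does not place a region in the gene's promoter or body.

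Guidance cues are secreted or membrane-bound proteins that attract or repel cells and growing axons through receptors on the responding cell. Class 3 semaphorins bind neuropilins, which signal through plexins; most other semaphorins bind plexins directly. A ephrins, which are held to the membrane by a lipid anchor, and B ephrins, which span it, bind Eph receptor tyrosine kinases and can signal in both directions. Slits bind Robo receptors, and netrin-1 binds Dcc and the Unc5 receptors. In the mouse pancreas, EphA and ephrin-A proteins act between beta cells in the control of insulin secretion, and Robo receptors are needed for normal islet architecture.

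Guidance genes were named mostly in the higher list. Of the 70 coding members 29 stood there, which is 41.4%, against 12.1% of all protein-coding genes. The lower list named 2 members, Efnb1 and Epha8, which is 2.86% against a background of 1.51%. Epha8 was also in the higher list and was the 1 member in both, where 0.503% of all protein-coding genes stood. The remaining 40 members were in neither list. Ligands and receptors were named about equally, with 15 of 35 ligand genes and 14 of 35 receptor genes in the higher list, while the lower list had 1 of each. The receptor genes were longer, with a median of 85.6 kb against 29 kb for ligand genes, and these shares take no account of length.

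**Figure D1:**
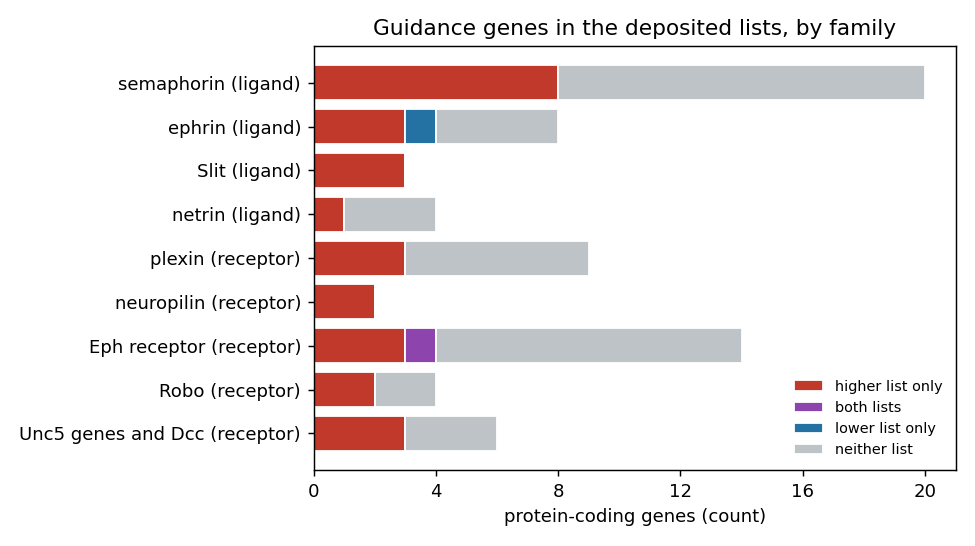
Each bar is a family of guidance genes, with ligand families above and receptor families below, and its length along the horizontal axis is the number of protein-coding genes. Colours give the list; all 3 Slits and both neuropilins are in the higher list, and Efnb1 and Epha8 are the members that the lower list names.

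The members named in the lower list were both from the ephrin system and both short. Efnb1 encodes ephrin-B1, a transmembrane ligand of EphB receptors, and lies on the X chromosome from 99136061 to 99149022 (13.0 kb, GRCm38). It was the only one of the 3 X-linked members to be named; Plxna3 and Plxnb3 were in neither list. Of all X-linked protein-coding genes, the lower list held 1.24% and the higher list 2.69%. Efnb1 was also the only ephrin in the lower list, while the other B ephrins, Efnb2 and Efnb3, were in the higher list. Epha8 encodes an EphA receptor and spans 27.4 kb of chromosome 4 (136929419 to 136956859). A gene in both lists was assigned at least 1 region of each direction, whose distance from the gene is not known.

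The promoter windows of these genes are printed to show the CpG dinucleotides at their starts, CpG being the main site of DNA methylation in mammals. Each window, from RefSeq on GRCm38.p6, runs from 250 bases before an annotated start to 50 after it, 5′ to 3′ on the gene's strand, with CpG dinucleotides in capitals. The window of Efnb1 is chrX:99135811-99136110 on the plus strand and holds 14 CpGs. That of Epha8 is chr4:136956767-136957066 on the minus strand and holds 56.
Efnb1: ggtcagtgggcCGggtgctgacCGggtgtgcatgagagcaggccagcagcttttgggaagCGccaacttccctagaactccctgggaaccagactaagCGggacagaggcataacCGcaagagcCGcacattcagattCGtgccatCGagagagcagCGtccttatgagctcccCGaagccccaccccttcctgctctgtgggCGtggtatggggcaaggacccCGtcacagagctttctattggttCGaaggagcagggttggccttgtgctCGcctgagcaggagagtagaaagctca
Epha8: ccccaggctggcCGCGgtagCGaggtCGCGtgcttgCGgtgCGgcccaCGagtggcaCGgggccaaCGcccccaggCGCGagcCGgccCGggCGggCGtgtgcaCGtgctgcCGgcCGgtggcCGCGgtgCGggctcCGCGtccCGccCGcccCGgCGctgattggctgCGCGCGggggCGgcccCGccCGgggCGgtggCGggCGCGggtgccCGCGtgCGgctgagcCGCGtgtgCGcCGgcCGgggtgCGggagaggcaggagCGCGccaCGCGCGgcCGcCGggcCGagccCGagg
Among the 60 members with a window, that of Epha8 had the highest number of CpGs and the highest G and C content, 84.3%, with an observed-to-expected CpG ratio of 1.06. For Efnb1 the values were 59.7% and 0.527. Both windows are given as sequence context, and whether a differential region touches either is not known.

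Semaphorin genes made up the largest family. The higher list named 8 of 20 (40%), against 12.1% of all protein-coding genes, and the lower list 0, against 1.51%. Those named were Sema3d and Sema3f, secreted cues of class 3; Sema4a, Sema4b and Sema4c, transmembrane cues of class 4; Sema5a; Sema6a; and Sema7a, which is lipid-anchored. By class, 2 of 7 class 3, 3 of 6 class 4, 1 of 2 class 5 and 1 of 4 class 6 genes were named, along with the single class 7 gene. Median lengths were 155 kb in class 3, 26.6 kb in class 4 and 71.6 kb in class 6. Of all protein-coding genes from 100 to 300 kb the higher list held 33.3%. From 30 to 100 kb it held 15.6% and below 30 kb 6.57%. So few genes per class allow no close reading. The named class 4 genes were short, at 25.2 kb for Sema4a, 39.8 kb for Sema4b and 12.1 kb for Sema4c. Among long semaphorins, Sema6d (578 kb) and Sema3a (479 kb) were in neither list and Sema5a (452 kb) was in the higher list. Sema3a, Sema3b, Sema3c, Sema3e, Sema3g, Sema4d, Sema4f, Sema4g, Sema5b, Sema6b, Sema6c and Sema6d were those not named. Of the semaphorins with a window, Sema4b had the most CpGs among those in the higher list, 26 in chr7:80186620-80186919 on the plus strand.
Sema4b: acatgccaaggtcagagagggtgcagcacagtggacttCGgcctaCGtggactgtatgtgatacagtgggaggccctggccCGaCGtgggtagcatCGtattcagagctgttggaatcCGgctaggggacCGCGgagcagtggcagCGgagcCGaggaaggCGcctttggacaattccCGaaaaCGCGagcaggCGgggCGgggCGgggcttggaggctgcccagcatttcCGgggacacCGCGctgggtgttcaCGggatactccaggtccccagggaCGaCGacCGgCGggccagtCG

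Both neuropilin genes, the co-receptors of class 3 semaphorins, were in the higher list. Nrp1 spans 147 kb of chromosome 8 (128358591 to 128505476) and Nrp2 spans 115 kb of chromosome 1 (62703317 to 62818692). Of all protein-coding genes of 100 to 300 kb, 33.3% were in that list. Plexin genes were named less completely. Of all protein-coding genes 12.1% were in the higher list, and of plexin genes 3 of 9. These were Plxna1 (46.3 kb) and Plxna4 (444 kb), which signal for neuropilin-bound semaphorins, and Plxnd1 (40.5 kb), a receptor best known from blood vessels. None of the 3 class B plexin genes was named, nor were Plxnc1, Plxna2 and Plxna3. Sema7a was thus named without Plxnc1, the plexin that binds it. The class B genes and Plxna3 are below 30 kb, where the higher list held 6.57% of all protein-coding genes. Plxnc1 and Plxna2 fall in the class of 100 to 300 kb. Of the neuropilins, Nrp2 had the promoter window with more CpGs (37 in chr1:62703067-62703366, plus strand). Plxnd1 (23 in chr6:115994956-115995255, minus strand) was the only plexin gene in the higher list with a window.
Nrp2: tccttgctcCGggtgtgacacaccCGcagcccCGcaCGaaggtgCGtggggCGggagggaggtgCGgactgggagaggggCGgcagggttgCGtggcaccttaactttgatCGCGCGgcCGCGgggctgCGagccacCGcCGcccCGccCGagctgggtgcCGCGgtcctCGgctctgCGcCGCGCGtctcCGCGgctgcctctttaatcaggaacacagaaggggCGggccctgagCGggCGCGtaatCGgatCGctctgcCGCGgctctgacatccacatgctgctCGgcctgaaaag
Plxnd1: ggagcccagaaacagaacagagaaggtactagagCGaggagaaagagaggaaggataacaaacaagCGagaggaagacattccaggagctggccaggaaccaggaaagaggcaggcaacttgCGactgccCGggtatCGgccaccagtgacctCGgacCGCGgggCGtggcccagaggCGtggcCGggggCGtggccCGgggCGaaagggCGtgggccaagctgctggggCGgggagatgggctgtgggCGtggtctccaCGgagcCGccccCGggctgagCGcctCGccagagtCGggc

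All 3 B ephrin genes were named, Efnb2 and Efnb3 in the higher list and Efnb1 in the lower list. Of the 5 A ephrin genes only Efna5, the longest at 278 kb, was named, in the higher list. Efna1, Efna3 and Efna4, which lie within a short stretch of chromosome 3 with gaps of 32.9 and 10.5 kb between neighbours, were in neither list, nor was Efna2. Efnb3, at 7.06 kb, was the shortest member named in either list. Of the Eph receptor genes 4 of 14 were in the higher list, namely Epha1 (14.8 kb), Epha8, Ephb1 (433 kb) and Ephb2 (189 kb). Those were 2 of 9 EphA and 2 of 5 EphB genes. The higher list held 37.5% of ephrin and 28.6% of Eph receptor genes, against 12.1% of all protein-coding genes. Median lengths were 9.88 kb for ephrin and 92.1 kb for Eph receptor genes. By length that background was 6.57% below 30 kb and 15.6% from 30 to 100 kb. It was 33.3% from 100 to 300 kb and 50.8% at 300 kb or more. The long receptor genes Epha6 (969 kb), Epha5 (363 kb), Epha3 (321 kb), Epha7 (154 kb) and Epha4 (148 kb) were in neither list, along with Epha2, Epha10, Ephb3, Ephb4 and Ephb6. Efna5, a high-affinity ligand of several EphA receptors, had 38 CpGs in its window (chr17:62881268-62881567, minus strand). Ephb2, a receptor of B ephrins, had 24 (chr4:136835963-136836262, minus strand).
Efna5: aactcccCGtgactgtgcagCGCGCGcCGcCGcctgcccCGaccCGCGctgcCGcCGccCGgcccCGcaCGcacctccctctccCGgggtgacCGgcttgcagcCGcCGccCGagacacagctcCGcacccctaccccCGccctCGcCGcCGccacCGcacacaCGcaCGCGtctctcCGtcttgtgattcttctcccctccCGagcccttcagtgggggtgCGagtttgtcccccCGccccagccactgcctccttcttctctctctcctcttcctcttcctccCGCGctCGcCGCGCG
Ephb2: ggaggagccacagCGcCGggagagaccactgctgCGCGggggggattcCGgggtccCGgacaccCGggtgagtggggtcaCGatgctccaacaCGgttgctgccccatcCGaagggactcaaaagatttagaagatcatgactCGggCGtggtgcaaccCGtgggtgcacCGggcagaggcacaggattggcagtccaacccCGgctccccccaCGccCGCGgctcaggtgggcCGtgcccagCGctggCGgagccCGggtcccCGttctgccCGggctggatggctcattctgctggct

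The Slit and Robo system was named in the higher list for all 3 ligands and for 2 of 4 receptors. The genes named were of 100 kb or more and the others below 30 kb. The higher list held 33.3% of all protein-coding genes of 100 to 300 kb and 50.8% of those of 300 kb or more. Below 30 kb it held 6.57%. Slit1 (149 kb, chromosome 19, 41597824 to 41747275), Slit2 (326 kb, chromosome 5, 47981291 to 48307735) and Slit3 (587 kb, chromosome 11, 35121456 to 35708507) encode large secreted proteins. Robo1 (1020 kb, chromosome 16, 72027518 to 73047491) and Robo2 (1555 kb, chromosome 16, 73891976 to 75447443) encode their principal neural receptors. Robo1 and Robo2 are neighbours, 844 kb apart with no protein-coding gene between them. Robo3 and Robo4, a short pair on chromosome 9 separated by 2.02 kb, were in neither list. Robo4 is the member found in endothelial cells. The window of Slit3 (chr11:35121206-35121505, plus strand) held 41 CpGs. That of Robo1 (chr16:72662899-72663198, plus strand) held 15 and belongs to an internal start, 636 kb inside the gene.
Slit3: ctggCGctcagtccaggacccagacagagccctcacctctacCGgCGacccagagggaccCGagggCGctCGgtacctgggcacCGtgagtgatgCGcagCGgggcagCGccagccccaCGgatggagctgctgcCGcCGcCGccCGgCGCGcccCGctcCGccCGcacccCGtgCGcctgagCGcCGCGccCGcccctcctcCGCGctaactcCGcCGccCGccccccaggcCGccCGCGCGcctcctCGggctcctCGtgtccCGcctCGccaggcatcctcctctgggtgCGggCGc
Robo1: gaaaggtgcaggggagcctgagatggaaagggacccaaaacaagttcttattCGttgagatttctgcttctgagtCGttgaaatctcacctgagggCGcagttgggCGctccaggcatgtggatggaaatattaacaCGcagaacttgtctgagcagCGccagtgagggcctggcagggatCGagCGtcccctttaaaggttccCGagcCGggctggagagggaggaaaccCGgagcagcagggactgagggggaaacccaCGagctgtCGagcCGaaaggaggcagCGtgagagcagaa

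Of the netrin genes, 1 of 4 was named, where the higher list held 12.1% of all protein-coding genes. Ntn1, the founding netrin of axon guidance, spans 177 kb of chromosome 11 (68209364 to 68386826) and was in the higher list; Ntn3, Ntn4 and Ntn5 were in neither. Of its receptor genes, Unc5a (60.9 kb) and Unc5d (573 kb) were in the higher list, whereas Unc5b, Unc5c and Dcc were in neither. Unc5c, Unc5d and Dcc are of 300 kb or more, where 50.8% of all protein-coding genes were in the higher list. From 100 to 300 kb, the class of Ntn1 and Ntn4, this share was 33.3%. From 30 to 100 kb, the class of Unc5a and Unc5b, it was 15.6%. Unc5cl (85.6 kb) was also in the higher list. It falls under the symbol rule but encodes an Unc5-like protein that is not a classical netrin receptor, and without it 28 of 69 members were in the higher list. The window of Unc5a (chr13:54949161-54949460, plus strand), 4.26 kb from the outermost annotated start, held 37 CpGs.
Unc5a: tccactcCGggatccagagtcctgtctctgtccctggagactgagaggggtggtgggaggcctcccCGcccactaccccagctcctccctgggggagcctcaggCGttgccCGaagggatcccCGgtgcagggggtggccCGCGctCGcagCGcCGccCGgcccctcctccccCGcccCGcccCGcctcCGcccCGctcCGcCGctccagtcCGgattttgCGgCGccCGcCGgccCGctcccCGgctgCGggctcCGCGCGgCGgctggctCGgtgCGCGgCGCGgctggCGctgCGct

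Gene length varied together with being named. The 30 named members had a median length of 121 kb (lowest 7.06, highest 1555) and the 40 others a median of 27.2 kb (4.64 to 1098). The median over all protein-coding genes was 17.2 kb, and over those in either list 52.9 kb. The territory of a gene was taken here as its own length and the nearer part of the gap to the next coding gene on either side. It followed the same order, in part by construction since it includes the length, and gaps alone were not compared. Its median was 254 kb for named members, 62.7 kb for the others and 46.4 kb for all protein-coding genes. The ranges of named and unnamed members overlapped almost wholly.

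**Figure D2:**
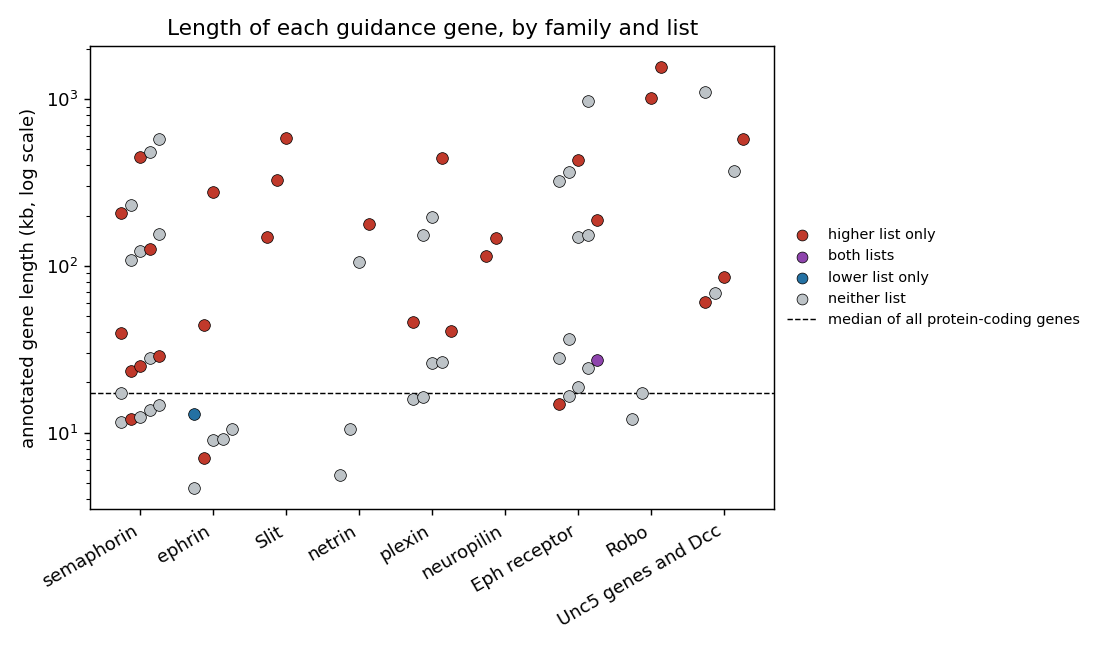
Each point is 1 guidance gene, placed by family on the horizontal axis and by annotated length in kb on a logarithmic vertical axis, with colours for the list and a dashed line at the median of all protein-coding genes (17.2 kb). Named genes are found from 7.06 kb (Efnb3) to 1555 kb (Robo2), with unnamed genes among the longest, such as Dcc and Epha6.

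The share named in the higher list was therefore set beside that of all protein-coding genes in the same length class. The classes are broad, and length was not matched within them. Among members of 300 kb or more, 8 of 15 (53.3%) were in the higher list, near the background of 50.8% for genes of that length. Of those from 100 to 300 kb, 8 of 17 (47.1%) were named, against 33.3%. From 30 to 100 kb the count was 6 of 8 (75.0%), against 15.6%. Below 30 kb it was 7 of 30 (23.3%), against 6.57%. The largest gaps to the background thus lay in the members under 100 kb, and the longest members were named about as often as other long genes. The class of 30 to 100 kb has only 8 members, so that 1 gene moves its share by more than 10 percentage points.

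The 13 members under 100 kb in the higher list were Sema3f, Sema4a, Sema4b, Sema4c, Sema7a, Efnb2, Efnb3, Epha1, Epha8, Plxna1, Plxnd1, Unc5a and Unc5cl. Ligands below 30 kb were in the higher list in 5 of 18 cases and receptors in 2 of 12. Among the members of 300 kb or more, those in neither list were Dcc (1098 kb), Epha6, Sema6d, Sema3a, Unc5c (369 kb), Epha5 and Epha3. Of the 10 longest members, all of 300 kb or more, 6 were in the higher list, near the background of 50.8% for that class. Of the 10 shortest, all below 30 kb, 2 were in it, against 6.57%.

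**Figure D3:**
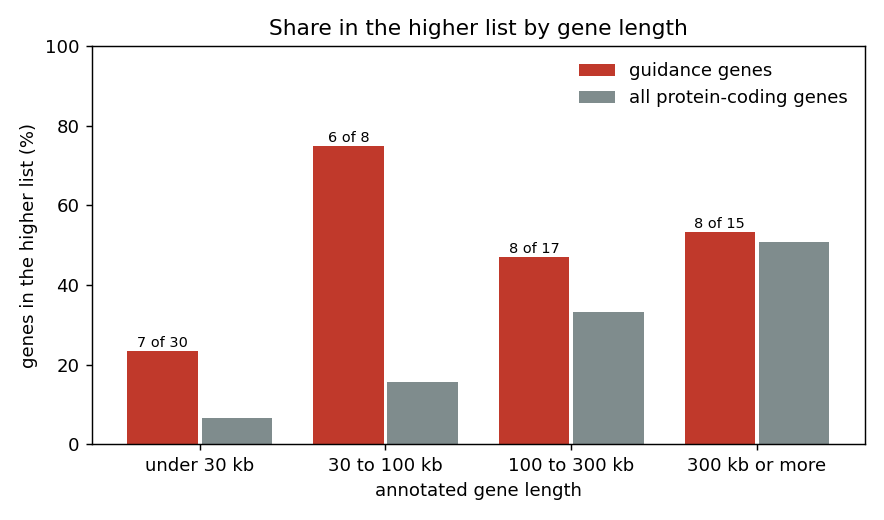
Bars give the percentage of genes in the higher list, on an axis from 0 to 100%, for guidance genes and for all protein-coding genes in 4 classes of annotated length, with the counts of guidance genes printed above their bars. The bars are close at 300 kb or more (53.3% and 50.8%) and far apart at 30 to 100 kb (75.0% and 15.6%).

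Named members often had a named neighbour. The next coding gene on at least 1 side was in a list for 15 of 30 named members, close to the 53.1% of all coding genes in either list. For unnamed members this held in 12 of 40 cases, against 18.9% of all coding genes in neither list. Adjacent names can come from regions lying between the genes, and the table does not show where the regions lie or how they were assigned. Efnb3 stood between Dnah2 and Wrap53, Slit3 between Spdl1 and Pank3, and Epha8 between C1qa and Zbtb40, each of these neighbours being in the higher list. Ephb2 and Epha8 lie 93.1 kb apart on chromosome 4 with 3 coding genes between them, and C1qb, the gene next to Ephb2, was in the higher list as well. Of the class 3 semaphorin cluster on chromosome 5, Sema3d was named while its neighbour Sema3a, 536 kb away, was not.

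Promoter CpG content did not separate named from unnamed members. Windows were matched for 22 of 30 named members and 38 of 40 others. Without one were Efnb3, Ntn1, Plxna1, Plxna4, Sema3f, Sema6a, Slit1, Unc5d, Dcc and Sema3b. The median number of CpGs per window was 23 in named members (4 to 56) and 20.5 in the others (2 to 42), against 13 over all protein-coding genes with a window and 19 over those in either list. Windows with over 50% G and C and an observed-to-expected CpG ratio above 0.6 numbered 15 of 22 (68.2%) and 23 of 38 (60.5%), against 45.5% of all. In ligand genes the medians were 23 for named and 18 for unnamed members, and in receptor genes 15 and 22, so the order was opposite in the ligands and the receptors. For 10 members the window lay over 1 kb from the outermost annotated start.

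**Figure D4:**
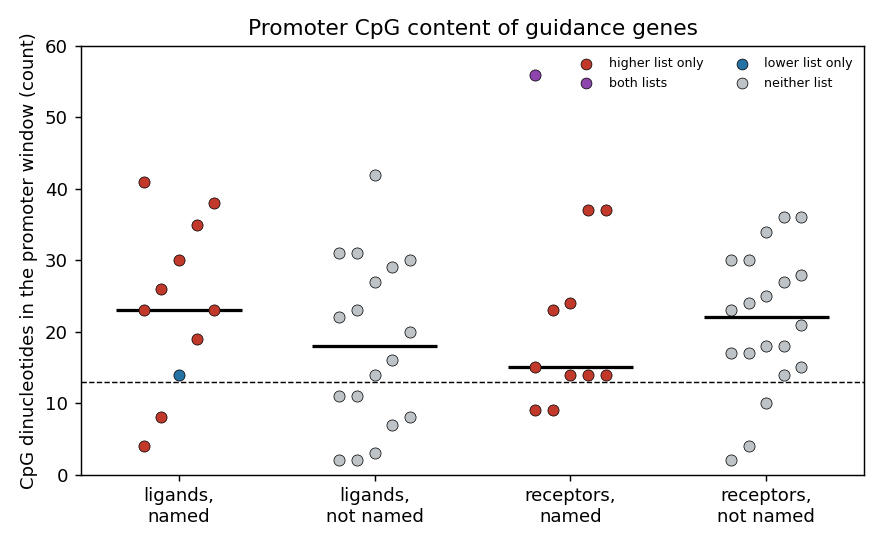
Points are guidance genes with a promoter window, grouped by role and by whether they were named, and the vertical axis counts CpG dinucleotides in the window of 300 bases. Thick bars are group medians (23, 18, 15 and 22) and the dashed line is the median of all protein-coding genes (13); the groups overlap, with Epha8 alone above 50.

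E-box hexamers, the kind of site that basic helix-loop-helix factors such as Neurog3 bind, were searched on both strands of the windows. CAGATG was found in 1 of 22 named members (4.55%, Epha1) and 3 of 38 others (7.89%), against 14.9% of all windows. CAGCTG, which reads the same on both strands, was found in 1 of 22 named members (4.55%, Sema7a) and 9 of 38 others (23.7%), against 15.1%. A window can hold both, as that of Epha6 did. These are matches of letters in a short window and not binding sites.

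Of 64 listed intracellular partners and further surface proteins of the 4 systems, 29 (45.3%) were in the higher list, against 12.1% of all protein-coding genes. The lower list held 3, all of them in both lists. By length, the higher list had 2 of 11 partners below 30 kb (background 6.57%), 2 of 14 from 30 to 100 kb (15.6%), 18 of 30 from 100 to 300 kb (33.3%) and 7 of 9 of 300 kb or more (50.8%). The partners named were thus mostly long genes, and of the 64 listed only 25 were under 100 kb. The share of partners named was near the background from 30 to 100 kb and above it in the other classes. Below 30 kb this rests on only 2 of 11 genes. The counts per pathway that follow were not set beside genes of like length. In ephrin and Eph signalling 10 of 15 were in the higher list, among them the exchange factors Vav2 (166 kb), Vav3 (345 kb), Tiam1 (358 kb) and Kalrn (604 kb), and the chimaerins Chn1 and Chn2, which turn Rac off. The others were Anks1, Sipa1l1, Grip1 and Grb10, an imprinted adaptor gene that was in both lists. In semaphorin and plexin signalling 6 of 19 were named: Mical2 (both lists) and Mical3, oxidases that take actin filaments apart, Dpysl4, Farp1, Arhgef11 and Met. In Slit and Robo signalling 4 of 11 were named: Srgap1 and Srgap3, GTPase-activating proteins that bind Robo, Enah and Gpc1. In netrin signalling 9 of 19 were named: Dscam and Dscaml1, Flrt1, Rgma, Trio (both lists), Dock1, Fyn, Ptk2 and Ablim1. The small GTPase genes Rac1, Cdc42 and Rhoa and the netrin receptor gene Neo1 were in neither list. Of the 29 named partners 4 were under 100 kb, namely Dpysl4 (15.8 kb), Gpc1 (28.6 kb), Rgma (44.4 kb) and Flrt1 (78.7 kb).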

How the data were processed

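DNA methylation was measured by whole-genome bisulfite sequencing in 2 libraries, 1 per genotype, of E14.5 pancreas cells sorted for eGFP. The submitters' processing notes list Trim Galore and the builds mm10 and GRCm38. Aligner, region caller, thresholds and the rule assigning regions to genes: not given in the sources used here. As deposited by the authors, the data are 1 table of 9 columns of gene names with no measured unit; per the file headers, column 1 is the lower list and column 2 the higher list. The 7 columns with a blank header continue the alphabetical order of column 2 and were read as the higher list.

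Ignoring case, names were looked up among symbols, gene IDs and unique older symbols of 49997 genes (RefSeq, GRCm38.p6). Of the higher list 3145 of 3230 matched, of the lower list 406 of 429, and all member names matched by current symbol. Matching was tested on simulated data made of current symbols in capitals and gene IDs from the same annotation. Older symbols and unmatched names were not tested. Coordinates are 1-based and those of annotated genes. Where a gene had several promoter windows, the one nearest its outermost annotated start was used. Python 3.11.15, numpy 2.4.6 and matplotlib 3.10.9 were used. The members, the partner list and the alternatives were chosen with earlier results of these data known. All members are accounted for, and partners were named where they stood in a list. Promoters were printed for the members in the lower list. Per family, that of the member in the higher list alone with the most CpGs, among those with a window, was also printed.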

Additional observations from a re-analysis of the deposited data

How the results depend on the processing

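Of 30 values of the 6 counts under 5 alternatives, 23 stayed within 1.5 times the main count and 7 did not. Leaving out the longest length decile of protein-coding genes (109 kb or more) lowered the counts in the higher list by construction, since it removes members. It left 13 members (32.5% of 40, against 9.15% of all remaining genes), 7 ligands and 6 receptors. In the lower list, autosomes alone gave 1 member and 0 ligands, since Efnb1 is X-linked. Leaving out genes in both lists gave 1 member and 0 receptors, since Epha8 is in both. Counts with current symbols only were those reported. No paired analysis was possible because there was 1 library per genotype, and no replicate could be left out. The lower list is small, and with 2 members in it no share there can be read closely. Coverage, levels and positions of the regions are not in the table, so their effect on the names was not tested.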

Other observations

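The deposited spelling differed between the lists. Of the 29 members in the higher list 28 were written in capitals and Plxna1 in small letters, whereas the lower list gave Efnb1 in small letters and Epha8 with a capital first letter.

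Some long unnamed members stood next to a named gene, while Epha6, Unc5c, Epha5 and Epha3 did not. Dcc, the main attractive netrin receptor, was in neither list, while its neighbour Mbd2, which encodes a reader of methylated DNA, was in the higher list at a distance of 624 kb. Sema6d had Sqor on 1 side and Epha4 had Slc4a3, both in the higher list, at 1280 and 1808 kb.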
